A study of Homo sapiens with 5 samples.

Results

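Protocadherin genes were compared between 501Mel and Hermes 3A cells after BPTF silencing. The members were the protein-coding genes whose symbol in the GENCODE v29 annotation begins with PCDH, and there were 66 of them, against 31029 genes that were listed in the count files of both lines. They comprise 15 alpha, 16 beta and 22 gamma genes of the protocadherin clusters and 13 non-clustered genes. The libraries were 2 replicates of 501Mel shBPTF and 3 replicates of Hermes 3A shBPTF. 501Mel is a human melanoma line that expresses MITF, and Hermes 3A is a line of untransformed, immortal human melanocytes. All 5 libraries came from cells infected with a lentivirus that expresses a short hairpin RNA against BPTF, the defining subunit of the NURF chromatin remodeller, and selected for 5 days with puromycin at 3 µg/ml. The labels do not say which shBPTF construct was used, or whether replicates were separate cultures, so that p-values measure only the spread between these libraries. Hermes 3A medium also held TPA, cholera toxin, stem cell factor and endothelin-1, which 501Mel medium did not. Line, medium and transformed state therefore cannot be told apart. No shControl library was analysed here, and every difference below is one between the lines, not an effect of the knockdown.

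Protocadherins are the largest family of cadherins, calcium-dependent adhesion proteins of the cell surface. The alpha, beta and gamma genes lie one after the other on chromosome 5. Each gene has its own promoter and a large exon that codes for the extracellular, transmembrane and proximal cytoplasmic parts. In the alpha and gamma clusters this variable exon is spliced to constant exons that all genes of the cluster share, whereas beta genes have no constant exons. In neurons each cell uses a few of these promoters, in a choice that depends on CTCF, cohesin and DNA methylation, and the resulting set of proteins lets a cell recognise its own processes. The last genes of the alpha and gamma clusters, PCDHAC1, PCDHAC2, PCDHGC3, PCDHGC4 and PCDHGC5, are called C-type and are controlled differently. Non-clustered protocadherins, most of them of the delta subfamilies, lie alone on several chromosomes.

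In the GENCODE v29 annotation on GRCh38 the alpha genes span chr5:140786136-141012347, the beta genes chr5:141051135-141249365 and the gamma genes chr5:141330571-141512981. RefSeq promoter windows (GRCh38.p14, from 250 bases before to 50 bases after a gene's start) were found for 58 of the 66 members. Promoters of clustered protocadherins are known for a conserved element with a CGCT core, and short forms of it were chosen here after looking at the sequences. Both strands were searched. GTGGCGCT was in 13 of 14 beta promoters, in 0 of 13 alpha and 0 of 20 gamma promoters, and in 1.15% of all 35116 promoters. TGTCGCT was in 10 of 13 alpha, 3 of 20 gamma and 1 of 14 beta promoters and in 1.76% of all promoters. GCCGCTG was in 12 of 20 gamma, 0 of 13 alpha and 0 of 14 beta promoters and in 11.1% of all promoters. The CGCT core, which all of these motifs contain, was in 70.0% of all promoters. A match is a description of letters and not a bound site. Of the 13 beta genes with GTGGCGCT 11 were tested, and all 11 were called as higher in Hermes 3A, as were 12 of all 13 tested beta genes. All 13 tested had passed the filter on low counts, described below, through Hermes 3A only. No tested beta gene had a window without the motif, so that calls cannot be compared by motif. The following beta windows of 30 bases are shown because all of these genes were higher in Hermes 3A, with the motif in capitals (plus strand, 5′ to 3′).
PCDHB2 (chr5:141094546-141094575): gagacgcgggGTGGCGCTgcagccttagaa
PCDHB7 (chr5:141172568-141172597): aaaacgcaagGTGGCGCTgctggctaaaaa
PCDHB10 (chr5:141192301-141192330): aggccacacgGTGGCGCTgcaggctaaaga
PCDHB12 (chr5:141208645-141208674): gagacgcgtgGTGGCGCTgcaggataatat
PCDHB13 (chr5:141213867-141213896): aggacgcgtgGTGGCGCTgcaggataagaa
PCDHB14 (chr5:141223265-141223294): gagacacatgGTGGCGCTacaggataagac
The next windows compare gamma genes that differed between the lines (PCDHGA10, PCDHGA11 and PCDHGC3) with gamma genes that were not called (PCDHGB4, PCDHGA8 and PCDHGA9), with GCCGCTG in capitals.
PCDHGA10 (chr5:141412935-141412964): gactctgagcGCCGCTGttcacctactagg
PCDHGA11 (chr5:141420976-141421005): ggctctaggcGCCGCTGctcaccaatcagg
PCDHGC3 (chr5:141475884-141475913): gactctgtgtGCCGCTGtcggccaatgaag
PCDHGB4 (chr5:141387621-141387650): gactctgggcGCCGCTGttggccaaagtgg
PCDHGA8 (chr5:141392572-141392601): gactgtaagcGCCGCTGttcacctactgga
PCDHGA9 (chr5:141402718-141402747): gactctgagcGCCGCTGttgatcaactcta
Of the alpha cluster, PCDHA4 and PCDHA7, both higher in Hermes 3A, are set beside PCDHA11, whose counts were above in 501Mel, with TGTCGCT in capitals.
PCDHA4 (chr5:140806982-140807011): agccacatgaTGTCGCTctttaccacaaaa
PCDHA7 (chr5:140834175-140834204): ggccacatgaTGTCGCTctttaccgcaaat
PCDHA11 (chr5:140868886-140868915): aggcgcaaggTGTCGCTctttacttggtgg
Of the 12 gamma genes with GCCGCTG, 8 were higher in Hermes 3A, 3 were not called and 1, PCDHGB5, was not analysed here. This share was near that of all tested gamma genes, of which 15 of 21 were called, and of the 8 gamma genes without the motif 5 were called. These shares include gamma genes that had passed the filter through Hermes 3A only, 8 of the 21, all of which were called. Of the 13 that passed in both 501Mel libraries, 7 were called.

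Values are read counts per gene, and CPM is the count of a gene scaled to the same library total for every library. The totals ran from 30073071 to 43032311 counts, so that 3 counts, taken as the floor of detection, correspond to 0.0697 to 0.0998 CPM. Intervals and floors cover counting error only. All 7 melanocytic markers had at least 10 counts in every library, summing to 12718 to 19661 CPM in 501Mel and 31651 to 32728 in Hermes 3A. Of 7 fibroblast markers, 2 reached 10 counts in every 501Mel library and 4 in every Hermes 3A library, with sums of 3.46 to 17.2 and 80.1 to 190 CPM. The neuronal markers (5 of 6 listed) summed to 54.0 to 63.5 CPM in 501Mel and 57.7 to 101 in Hermes 3A, and the keratinocyte markers, of which 4 of 6 were listed in 501Mel and 3 of 6 in Hermes 3A, to 32.9 to 34.3 and 43.9 to 48.2, sums over different genes. No listed marker was at 0 in all libraries of a line. The melanocytic, fibroblast and keratinocyte sums were thus all higher in Hermes 3A, the direction of most tested protocadherins, while the neuronal sums overlapped. The part of these cell types in the protocadherin difference was not tested. In such bulk RNA, fewer cells that express a gene and less RNA per cell cannot be told apart. BPTF itself had 2832 and 2189 counts in 501Mel and 1906, 2110 and 1628 in Hermes 3A. Its log2 difference, 501Mel minus Hermes 3A, was 0.23 ± 0.14 (SE, adjusted p = 0.211), and without control libraries this does not check the knockdown.

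The clustered protocadherins were mostly higher in Hermes 3A, and by the test as described here none of the tested ones was called as higher in 501Mel. Of the 66 members, 61 were listed in both lines, 46 passed the filter on low counts, and 35 of these were called at an adjusted p of 0.05 by the edgeR quasi-likelihood test. Of these 35, 32 were higher in Hermes 3A and 3 in 501Mel. Over all 17918 genes tested 48.4% were called, 24.1% as higher in Hermes 3A and 24.3% as higher in 501Mel. The libraries of the lines did not overlap for 41 tested members, 35 with Hermes 3A above and 6 with 501Mel above, against 69.9% of all genes, 31.9% with Hermes 3A above. These counts need care, because 25 of the 46 members passed the filter only through their Hermes 3A counts and could hardly have been called the other way. Among the 21 that passed in both 501Mel libraries, 9 were higher in Hermes 3A, 3 in 501Mel and 9 were not called. Of the 16001 genes overall that passed in both 501Mel libraries, 3206 were higher in Hermes 3A and 4348 in 501Mel. Both sets are chosen on 501Mel counts and so are not balanced either. The 16001 genes hold every gene called as higher in 501Mel and leave out 1110 called as higher in Hermes 3A. Of the 3 members higher in 501Mel, PCDH8 and PCDH17 had passed through 501Mel only.

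**Figure D1:**
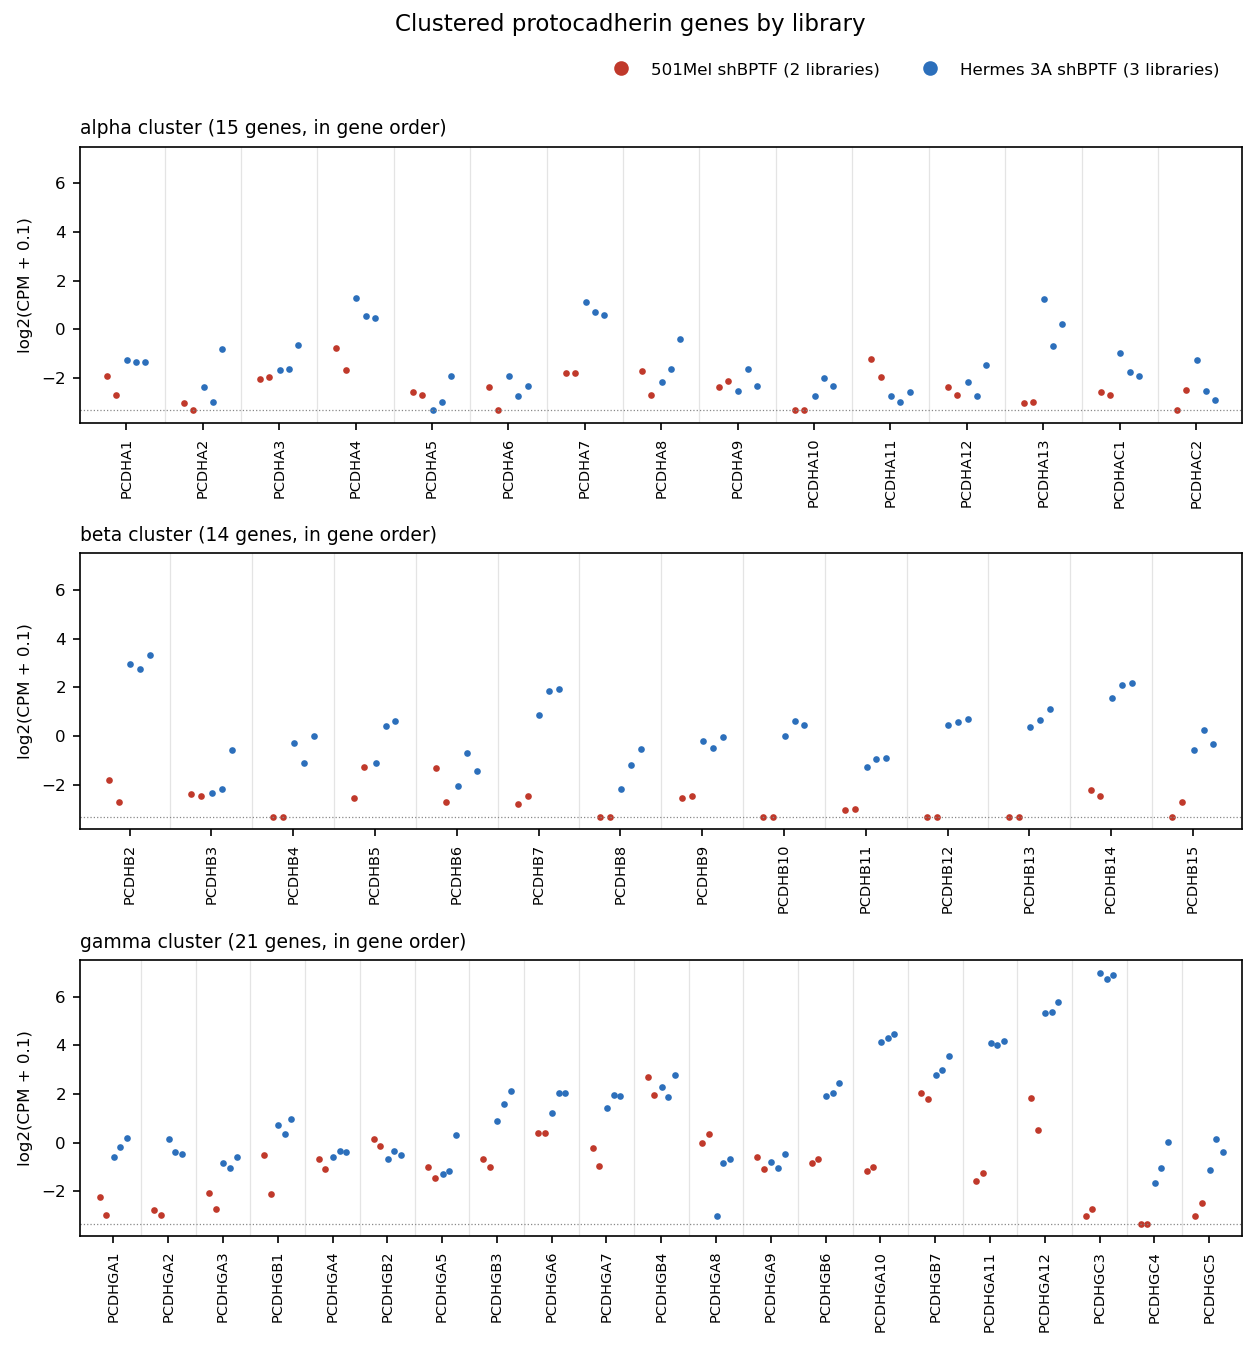
Level of each alpha, beta and gamma protocadherin gene listed in both lines, as log2(CPM + 0.1) on the vertical axis, with 1 point per library (501Mel red, 2 libraries; Hermes 3A blue, 3 libraries) and genes in their order on chromosome 5. The dotted line is a count of 0. The blue points lie above the red ones for most beta and gamma genes, furthest for PCDHGC3 at 116 CPM in Hermes 3A, while PCDHGB4 has both lines at about 5 CPM.

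Summed over the genes of a cluster, the beta protocadherins differed most. Their sum was 0.906 and 0.819 CPM in the 501Mel replicates and 18.7, 23.2 and 28.5 CPM in the Hermes 3A replicates, a ratio of means of 27.2. The gamma sum was 21.8 and 15.2 CPM in 501Mel and 228, 217 and 256 CPM in Hermes 3A, a ratio of 12.7. The alpha sum was low in both lines, 1.98 and 1.22 CPM against 8.62, 4.94 and 6.68 CPM, a ratio of 4.23. For all 3 clusters every Hermes 3A library lay above every 501Mel library. The non-clustered sum did not separate the lines, at 27.2 and 12.5 CPM against 26.0, 24.7 and 23.3 CPM, a ratio of 1.24, and this ratio rested on a single library, being 0.905 without 501Mel replicate 2 and 1.97 without 501Mel replicate 1. The 11 non-clustered genes summed leave out a gene described below, listed under an identifier that the study's supplement calls PCDH20. It was at 0.325 and 0.158 CPM in 501Mel and 200, 74.0 and 57.9 CPM in Hermes 3A. In every Hermes 3A library it exceeded the whole non-clustered sum, so that the overlap of the lines holds only without it. The sums were not tested.

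In the gamma cluster the largest difference was that of PCDHGC3 (ENSG00000240184, chr5:141475947-141512979), a C-type gene whose protein is reported to bind Axin1 and to restrain Wnt signalling. It had 1 and 2 counts in 501Mel and 5240, 4353 and 3511 counts in Hermes 3A, or 0.0380 CPM ± 0.0209 (SD, n = 2) against 116 ± 9.65 (SD, n = 3). On pooled counts the ratio was 3138, with a 95% exact counting interval of 1074 to 15219. The log2 difference was -11.56 ± 0.33 (SE, adjusted p = 4.93e-06), the rank of 34 among 17918 genes counted from the lowest. PCDHGC4 and PCDHGC5, the other C-type gamma genes, were far less abundant. PCDHGC4 had 0 counts in both 501Mel libraries, which allows up to 0.0371 CPM over the pair, and 9, 16 and 28 counts in Hermes 3A, at least 12.7-fold higher (adjusted p = 0.00887). PCDHGC5 had 1 and 3 counts against 15, 41 and 20 (log2 -3.72 ± 0.79, adjusted p = 0.00733), and its adjusted p was 0.0628 without 501Mel replicate 1.

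Next to the C-type genes, the last 3 genes of the A type stood out from the rest of the cluster. PCDHGA12 had 149 and 50 counts in 501Mel and 1670, 1706 and 1631 in Hermes 3A (log2 -4.30 ± 0.43, adjusted p = 0.000338). PCDHGA11 had 10 and 12 counts against 712, 653 and 547 (log2 -6.01 ± 0.33, adjusted p = 3.83e-05). PCDHGA10 had 15 and 15 counts against 719, 807 and 660 (log2 -5.77 ± 0.30, adjusted p = 3.13e-05). The groups of libraries were far apart for each of these genes, and only PCDHGA12 also varied strongly between the 501Mel replicates. PCDHGB7, which lies between PCDHGA10 and PCDHGA11, differed less. It had 173 and 128 counts against 286, 324 and 349 (log2 -1.31 ± 0.33, adjusted p = 0.0148), and its adjusted p rose to 0.0664 without 501Mel replicate 2 and to 0.0563 without Hermes 3A replicate 3. PCDHGB6 had 20 and 20 counts against 154, 162 and 161 (log2 -3.18 ± 0.41, adjusted p = 0.000985), with no overlap between the lines.

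Of the remaining A and B genes of the gamma cluster, PCDHGA1, PCDHGA2, PCDHGA3, PCDHGB1, PCDHGB3, PCDHGA6 and PCDHGA7 were called as higher in Hermes 3A, with log2 differences from -4.34 (PCDHGA2) to -1.53 (PCDHGA6). In the whole gamma cluster 8 tested genes had passed the filter through Hermes 3A only, and all 8 were called. These were PCDHGA1, PCDHGA2, PCDHGA3, PCDHGB1, PCDHGA11, PCDHGC3, PCDHGC4 and PCDHGC5, which could hardly have been called the other way. Of the 13 gamma genes that passed in both 501Mel libraries, 7 were higher in Hermes 3A and 6 were not called. PCDHGA2, at 2 and 1 counts in 501Mel against 42, 27 and 19, had a ratio of pooled counts of 21.1 with a counting interval of 6.98 to 104. The calls of PCDHGA3, PCDHGB1 and PCDHGA6 were each lost when 1 of several libraries was left out, and the adjusted p of PCDHGA6 was 0.0817 without 501Mel replicate 1 and 0.0709 without 501Mel replicate 2. For PCDHGA3 it was 0.132 without 501Mel replicate 2 and 0.0517 without replicate 1, and for PCDHGB1 0.117 without 501Mel replicate 2 and 0.0762 without Hermes 3A replicate 3.

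The gamma genes that were not called were PCDHGA4, PCDHGB2, PCDHGA5, PCDHGB4, PCDHGA8 and PCDHGA9. PCDHGB4 (chr5:141387698-141512979) had the most gamma counts in 501Mel, 274 and 144, against 201, 145 and 206 in Hermes 3A. Its log2 difference was -0.07 ± 0.40 (SE, adjusted p = 0.906), and its sign changed when a library was left out. PCDHGA9 was at 24 and 14 counts against 20, 16 and 19 (log2 -0.17 ± 0.48, adjusted p = 0.796). In 2 genes the 501Mel libraries lay above all Hermes 3A libraries. PCDHGA8 had 38 and 45 counts against 1, 19 and 16 (log2 1.58 ± 0.84, adjusted p = 0.159), and PCDHGB2 had 44 and 31 against 22, 28 and 18 (log2 0.54 ± 0.41, adjusted p = 0.302). Neither of these differences was called by this test.

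The make-up of the gamma reads therefore differed as well as their sum. In Hermes 3A PCDHGC3 took 55.1%, 49.1% and 45.6% of the gamma CPM, and PCDHGA12 took 17.6%, 19.2% and 21.2%. In 501Mel PCDHGC3 took 0.107% and 0.348%, whereas PCDHGB4 took 29.2% and 25.1% and PCDHGB7 18.5% and 22.3%. PCDHGB4 took only 1.63% to 2.67% in Hermes 3A, although its own CPM was near that of 501Mel. Levels were also taken per kb of exon that no exon of any other annotated gene overlaps, on either strand. On this scale the highest gamma levels in Hermes 3A were those of PCDHGC3 (35.8 CPM per kb ± 2.97, SD, n = 3) and PCDHGA12 (17.2 ± 2.94), above PCDHGA11 (4.70 ± 0.304), PCDHGA10 (4.40 ± 0.525) and PCDHGB7 (3.16 ± 0.893). PCDHGA11 and PCDHGA10 did not differ beyond their spread. In 501Mel the order on the same scale began with PCDHGB4 (2.07 ± 0.737, SD, n = 2), PCDHGB7 (1.33 ± 0.162) and PCDHGA12 (0.908 ± 0.575), whose spreads overlapped. Without PCDHGC3 the gamma sum was 18.4 CPM ± 4.70 against 117 ± 19.4, a ratio of 6.37. Without PCDHGC3 to PCDHGC5 and PCDHGA10 to PCDHGA12, the sum of the remaining 15 genes was 15.3 ± 3.31 against 34.2 ± 8.27, a ratio of 2.23. These subsets were chosen after their values were seen.

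The counts also show how reads on the constant exons were handled. These exons belong to every gamma gene, and between 31.1% and 71.1% of the 50-base words of a gamma gene's transcripts recur in another protocadherin. Reads on constant exons that were counted in full for each gene would appear in all gamma genes alike. In 501Mel, however, PCDHGC3 had 1 and 2 counts and PCDHGC4 had 0 where PCDHGB4 had 274 and 144. Such reads were therefore not counted in full for every gamma gene, and the rule that was used is not given in the sources used here. The share of recurring words was highest for PCDHGB4 (71.1%), which had 4353 words in common with PCDHGA8, itself at 52.5%. For PCDHGC3 the most words in common with any other member were 2136. The levels of PCDHGB4 and PCDHGA8, both not called, are uncertain to that extent.

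Beta protocadherins were nearly silent in 501Mel. No beta gene had more than 13 counts in a 501Mel library, and 5 of the 13 tested had 0 counts in both. Of these 13, 12 were called as higher in Hermes 3A, and all 13 had passed the filter through Hermes 3A only. PCDHB2 (chr5:141094578-141098703), the most abundant in Hermes 3A, had 8 and 2 counts in 501Mel and 322, 267 and 296 in Hermes 3A (log2 -6.07 ± 0.58, adjusted p = 0.000284). PCDHB14 had 5 and 3 counts against 117, 168 and 132 (log2 -5.27 ± 0.52, adjusted p = 0.000313). PCDHB7 had 2 and 3 counts against 72, 145 and 110 (log2 -5.56 ± 0.65, adjusted p = 0.000632). In each of these genes all Hermes 3A libraries were above both 501Mel libraries. The genes do not adjoin each other and are separated by other members of the cluster.

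For beta genes with 0 counts in 501Mel the difference is given as a bound, taking 3 counts over both 501Mel libraries. PCDHB13 had 50, 60 and 62 counts in Hermes 3A, at least 41.2-fold higher (adjusted p = 0.00083). PCDHB12 had 52, 56 and 46, at least 36.9-fold higher (adjusted p = 0.000675), and PCDHB10 had 37, 59 and 38, at least 32.1-fold higher (adjusted p = 0.000948). PCDHB4, at 30, 15 and 27 counts, was at least 17.2-fold higher, and PCDHB8, at 5, 14 and 18, at least 8.86-fold higher. The call of PCDHB8 was lost without 501Mel replicate 1 (adjusted p = 0.0613). PCDHB9, PCDHB11 and PCDHB15 had 0 to 3 counts in each 501Mel library and 13 to 45 in each Hermes 3A library.

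PCDHB5 and PCDHB6 together had the most beta counts in 501Mel, at 15 each. PCDHB5 had 3 and 12 counts against 15, 51 and 43 (log2 -2.43 ± 0.85, adjusted p = 0.0482), a call close to the threshold that was lost without 501Mel replicate 1 (adjusted p = 0.217), Hermes 3A replicate 2 (0.0897) or Hermes 3A replicate 3 (0.103). PCDHB6, at 13 and 2 against 6, 21 and 8 counts, was not called (log2 -0.82 ± 0.82, adjusted p = 0.441). PCDHB3, at 4 and 3 against 4, 5 and 17 counts, did not pass the filter. PCDHB1, which has no GTGGCGCT in its promoter window, had 0 and 0 counts in 501Mel and was not analysed in Hermes 3A, and PCDHB16 was not analysed here. Beta genes resemble each other closely, so that short reads can be split between copies. The share of 50-base words found in another protocadherin was highest for PCDHB8 (45.7%, most often in PCDHB13), PCDHB10 (35.4%, most often in PCDHB9) and PCDHB13 (23.3%, most often in PCDHB8), and the levels of these genes are uncertain to that extent. For PCDHB7 the share was 9.37%.

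Alpha protocadherins were read at low level in both lines, and 11 of 15 did not pass the filter. PCDHA7 (chr5:140834248-141012344) had 8 and 7 counts in 501Mel and 87, 63 and 42 in Hermes 3A (log2 -3.23 ± 0.50, adjusted p = 0.00204). PCDHA13 had 1 and 1 counts against 94, 21 and 32, with a ratio of pooled counts of 52.8 and a counting interval of 14.4 to 440 (adjusted p = 0.00403). PCDHA4, with the most alpha counts in 501Mel, had 21 and 8 against 98, 55 and 38 (log2 -2.30 ± 0.59, adjusted p = 0.0153). These 3 genes were the called alpha members, all with Hermes 3A above, a direction that the filter fixed, since all 4 tested alpha genes had passed it through Hermes 3A only. The call of PCDHA4 was lost without 501Mel replicate 2 (adjusted p = 0.0827). They took 24.8% (PCDHA7), 24.5% (PCDHA4) and 18.9% (PCDHA13) of the mean alpha CPM in Hermes 3A. PCDHA1, at 7 and 2 against 13, 12 and 9 counts, was tested and not called (adjusted p = 0.0853).

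The 11 alpha genes below the filter had at most 20 counts in any library. PCDHA11 was the alpha gene whose 501Mel libraries both lay above all Hermes 3A libraries, with 14 and 6 counts in 501Mel and 2, 1 and 2 in Hermes 3A. In PCDHA5, PCDHA6, PCDHA8, PCDHA9, PCDHA12 and PCDHAC2 the lines overlapped. The C-type genes PCDHAC1, at 3 and 2 against 17, 8 and 5 counts, and PCDHAC2, at 0 and 3 against 13, 3 and 1, stayed near the floor in both lines. With no filter on low counts all 11 were tested by edgeR and 0 were called, with a lowest adjusted p of 0.0543 and 4 genes at an unadjusted p under 0.05 (PCDHA2, PCDHA10, PCDHA11 and PCDHAC1). DESeq2 gave an adjusted p for 9 of them and also called 0, with 1 gene, PCDHA10, at an unadjusted p under 0.05.

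**Figure D2:**
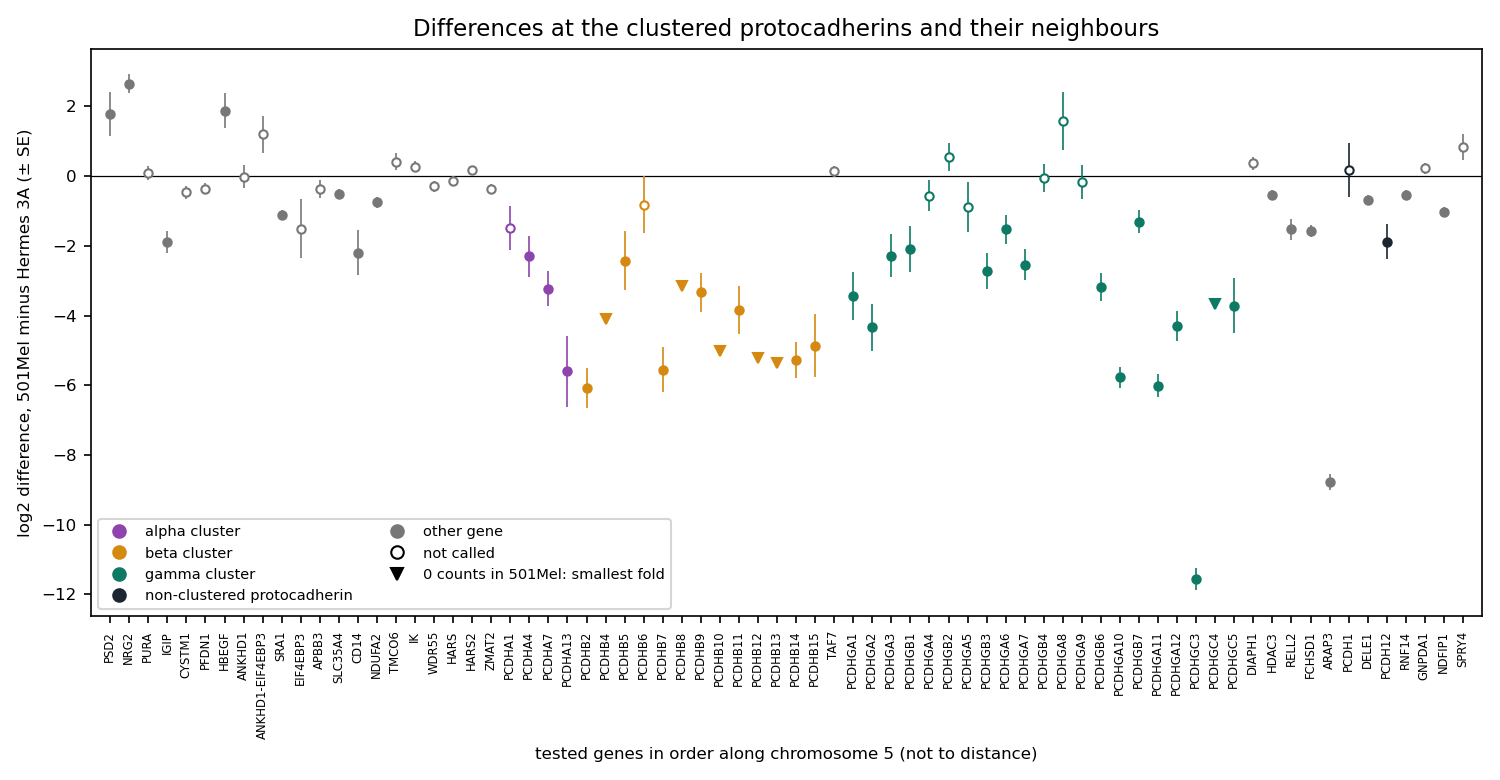
Log2 difference between the lines (501Mel minus Hermes 3A, vertical axis) of the tested genes of the clusters and of protein-coding genes within 1 Mb, in gene order along chromosome 5. Circles show the fitted value with its SE (open: not called) and triangles the smallest fold that 0 counts in 501Mel allow. The beta and gamma genes lie mostly below 0, the neighbours mostly between -2 and 2 with ARAP3 at -8.78.

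The genes around the clusters were set beside them. Of 36 other protein-coding genes within 1 Mb of the clusters, 32 were tested, of which 12 were higher in Hermes 3A, 3 in 501Mel and 17 were not called, with a median log2 difference of -0.37. The called share was 46.9%, near the 48.4% of all genes tested, with 37.5% higher in Hermes 3A against 24.1% of all genes. The median of all genes tested was 0.02. TAF7, a subunit of the general transcription factor TFIID, lies between the beta and gamma clusters and was not called (log2 0.14 ± 0.16, adjusted p = 0.516). DIAPH1, a formin that lies beyond the gamma cluster, was not called either (log2 0.36 ± 0.19, adjusted p = 0.144). ARAP3, a GTPase-activating protein further along the chromosome, was chosen for mention after its values were seen. It had 7 and 8 counts in 501Mel and 2967, 3449 and 2483 in Hermes 3A (log2 -8.78 ± 0.24, adjusted p = 4.93e-06). Among the called neighbours, ARAP3 and CD14 had passed the filter through Hermes 3A only, and PSD2 through 501Mel only. The difference of the neighbours from the members was not tested.

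Among the tested non-clustered members the directions were mixed, with 3 genes higher in 501Mel, 2 in Hermes 3A and 3 not called. All 8 of these had passed the filter in both 501Mel libraries. PCDH8 and PCDH17 had passed it through 501Mel only, since fewer than 2 Hermes 3A libraries reached its cut of 0.245 CPM. These 2 genes could hardly have been called as higher in Hermes 3A. PCDH7 (chr4:30720415-31146805), of the delta1 subfamily, which binds the phosphatase PP1, was the most abundant of these members in Hermes 3A. The gene that the study's supplement calls PCDH20, described below, is not among them and was more abundant there, at 200, 74.0 and 57.9 CPM. PCDH7 had 41 and 17 counts in 501Mel and 462, 515 and 364 in Hermes 3A (log2 -4.14 ± 0.40, adjusted p = 0.000309). PCDH12 (chr5:141943585-141969741), known from endothelial cells, had 20 and 20 counts against 58, 106 and 39 (log2 -1.88 ± 0.49, adjusted p = 0.0169). The Hermes 3A libraries were above for both genes, but the call of PCDH12 was lost without either 501Mel replicate (adjusted p = 0.0923 and 0.0637).

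The 3 members that were higher in 501Mel lie on chromosome 13. PCDH9 (chr13:66302834-67230445), of the delta1 subfamily, had the most non-clustered counts in 501Mel, 591 and 225, against 73, 91 and 51 in Hermes 3A (log2 2.31 ± 0.41, adjusted p = 0.00345). PCDH17 (chr13:57631810-57729311), of the delta2 subfamily, had 61 and 30 counts against 7, 12 and 7 (log2 2.18 ± 0.49, adjusted p = 0.00953). PCDH8 (chr13:52842889-52848641), also delta2 and known in the embryo for its part in paraxial mesoderm, had 53 and 28 counts against 0, 8 and 4 (log2 3.11 ± 0.86, adjusted p = 0.0207). The lines did not overlap for any of these genes, of which PCDH17 and PCDH8 had passed the filter through 501Mel only. Replicate 1 of 501Mel was the higher one each time, and without it the calls of PCDH17 (adjusted p = 0.0968) and PCDH8 (adjusted p = 0.125) were lost while that of PCDH9 held.

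PCDH18, PCDH10 and PCDH1 were not called. PCDH18 had 86 and 66 counts against 385, 101 and 102 (log2 -1.52 ± 0.64, adjusted p = 0.0850), with Hermes 3A replicate 1 well above the other libraries. PCDH10, which binds the WAVE complex of actin regulators, had 56 and 41 counts against 41, 15 and 7 (log2 1.07 ± 0.64, adjusted p = 0.205). PCDH1, a delta1 member known from airway epithelium, had 246 and 37 counts against 47, 146 and 118 (log2 0.17 ± 0.77, adjusted p = 0.871). Its 501Mel replicates differed by a CPM ratio of 5.85, against a median of 1.21 over 16294 genes with at least 10 counts in both. Over the 23 members with such counts this median was 1.45, and replicate 1 was above replicate 2 in 18 of them. PCDH19, mutated in a form of epilepsy, had at most 10 counts in any library, and PCDH11X at most 8. PCDH15, a part of the tip links of hair cells, had 39 and 10 counts in 501Mel and was not analysed in Hermes 3A. The Y-linked PCDH11Y is counted among the members, and its values are not shown.

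**Figure D3:**
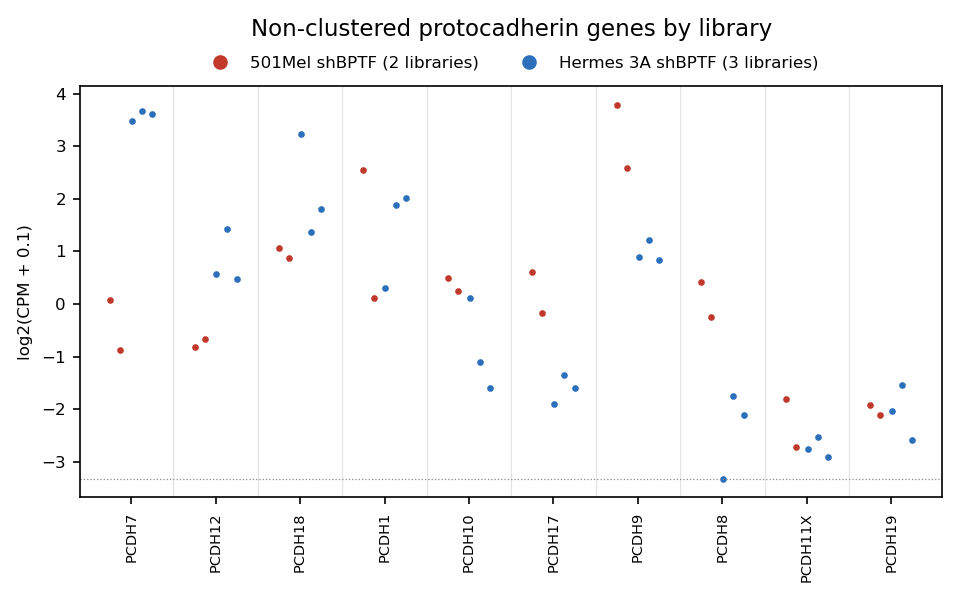
Level of the non-clustered protocadherin genes as log2(CPM + 0.1) on the vertical axis, with 1 point per library (501Mel red, Hermes 3A blue), the tested genes ordered by log2 difference and the genes below the filter at the right. The dotted line is a count of 0. PCDH7 lies higher in Hermes 3A and PCDH9, PCDH17 and PCDH8 lie higher in 501Mel, while the 501Mel points of PCDH1 are wide apart.

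PCDH20 was not found under its GENCODE v29 identifier, and its values are not part of any count or sum above. A gene that overlaps the PCDH20 locus on chromosome 13, AL592490.1 (ENSG00000197991), is listed under an identifier that the study's supplement calls PCDH20. It was chosen for mention after its values were seen. It had 14 and 6 counts in 501Mel and 8331, 3023 and 1742 in Hermes 3A (log2 -8.88 ± 0.87, adjusted p = 0.00032). This gene had passed the filter through Hermes 3A only. Whether its reads belong to PCDH20 was not tested.

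Genes known or thought to control the clustered protocadherins were more often called as higher in 501Mel than in Hermes 3A. Of 26 such genes 25 were tested, of which 14 were higher in 501Mel, with a median log2 difference of 0.68. CTCF, which binds these promoters, had 4643 and 3725 counts in 501Mel and 2799, 3798 and 2675 in Hermes 3A and was not called (log2 0.25 ± 0.16, adjusted p = 0.212). The cohesin subunit SMC1A had 15969 and 12257 counts against 3541, 3169 and 2202 (log2 2.08 ± 0.15, adjusted p = 9.67e-05). SMC3, which pairs with SMC1A in the cohesin ring, had a log2 difference of 1.72 ± 0.17 (adjusted p = 0.00029), and the cohesin loader NIPBL one of 1.39 ± 0.14 (adjusted p = 0.000383). The DNA methyltransferase DNMT3B, which methylates these promoters in the embryo, had 1048 and 863 counts against 144, 148 and 109 (log2 2.66 ± 0.21, adjusted p = 0.00014). DNMT1, which maintains methylation, had a log2 difference of 1.41 ± 0.15 (adjusted p = 0.000458).

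Of 27 tested genes for proteins that bind, cleave or signal from protocadherins, 10 were higher in Hermes 3A, 5 in 501Mel and 12 were not called, with a median log2 difference of -0.24. SRC, a tyrosine kinase, had 29 and 9 counts in 501Mel and 2472, 3050 and 2613 in Hermes 3A (log2 -7.36 ± 0.42, adjusted p = 4.28e-05). CDH2, the N-cadherin that associates with several protocadherins, had 12 and 4 counts against 1210, 758 and 526 (log2 -6.85 ± 0.53, adjusted p = 0.000127). For both genes all Hermes 3A libraries were far above 501Mel, and both had passed the filter through Hermes 3A only. APH1B, a subunit of the gamma-secretase that cleaves gamma protocadherins, was higher in Hermes 3A (log2 -3.48 ± 0.22, adjusted p = 5.73e-05), as was CYFIP2, of the WAVE complex (log2 -1.79 ± 0.20, adjusted p = 0.000494). ABI2, of the same complex, was higher in 501Mel (log2 1.22 ± 0.14, adjusted p = 0.00065).

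Of 17 tested genes for related large cadherins, 8 were higher in Hermes 3A, 3 in 501Mel and 6 were not called, with a median of -0.05. Among those called, FAT3 had passed the filter through Hermes 3A only, and CDHR5 and CLSTN2 through 501Mel only, so that the filter favoured their directions. CELSR1, a cadherin of planar cell polarity, had 57 and 63 counts in 501Mel and 2271, 3552 and 3134 in Hermes 3A (log2 -5.83 ± 0.35, adjusted p = 4.87e-05). FAT3, a giant cadherin of the Fat family, had 2 and 0 counts against 36, 94 and 57 (log2 -5.98 ± 0.93, adjusted p = 0.00207), whereas FAT4 of the same family was higher in 501Mel at 599 and 370 against 107, 57 and 46 (log2 2.61 ± 0.39, adjusted p = 0.00176). The Hermes 3A libraries were all above for CELSR1 and FAT3 and all below for FAT4. FJX1, a homologue of the kinase Four-jointed that modifies Fat cadherins (log2 -1.45 ± 0.25, adjusted p = 0.00305), and DCHS1, the ligand of FAT4 (log2 -2.55 ± 0.44, adjusted p = 0.00327), were higher in Hermes 3A.

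Of 14 melanocyte lineage genes, all tested, 7 were higher in Hermes 3A, 3 in 501Mel and 4 were not called, with a median of -0.79. MITF was not called (log2 0.17 ± 0.16, adjusted p = 0.433). The pigment genes DCT (log2 6.87 ± 0.29, adjusted p = 1.62e-05) and SLC45A2 (log2 7.23 ± 0.42, adjusted p = 4.51e-05) were higher in 501Mel, as was the endothelin receptor EDNRB (log2 1.36 ± 0.19, adjusted p = 0.00132). OCA2, a melanosomal transporter, was higher in Hermes 3A (log2 -3.07 ± 0.24, adjusted p = 0.000129), as was the transcription factor PAX3 (log2 -1.12 ± 0.14, adjusted p = 0.00088). Against the 48.4% of all genes that were called, these lists had 60% (control of protocadherins), 55.6% (partners), 64.7% (large cadherins) and 71.4% (melanocyte lineage).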

How the data were processed

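Total RNA was depleted of ribosomal RNA, made into libraries, normalized with duplex-specific nuclease and sequenced. This nuclease step lowers abundant sequences, so that differences of abundant genes may be understated. The authors deposited read counts per Ensembl gene, as whole numbers without normalization, 1 file per library. The submitters' processing notes name hg19, CASAVA 1.8, TopHat 1.4.1 and Bowtie 0.12.7. The counting program, annotation, strand setting and treatment of reads that map to several places are not given in the sources used here. The 501Mel files list 37259 genes and the Hermes 3A files 34033. The 31029 genes listed in both were analysed, of which 29317 matched GENCODE v29 by identifier, and the others had no name. Coordinates are GENCODE v29 on GRCh38, another build than that of the files, and were used for names and order only. Totals ranged from 30073071 to 43032311 counts. Replicate libraries differed by more than sampling noise, at a chi-square per gene of 19.4 or more, so that none was counted as a copy.

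Samples were grouped by cell line. The lines were compared with the edgeR 4.0.16 quasi-likelihood test in R 4.3.3 (TMM on the deposited totals, filterByExpr, Benjamini-Hochberg adjustment over all 17918 genes tested), which was tested on simulated data. SE is the log2 difference divided by the square root of F. CPM was computed on deposited totals. Folds against 0 counts use a floor of 3 counts over both 501Mel libraries, and ratios of 1 to 3 counts have exact 95% intervals. The study's methods name no test. Members, gene lists, motifs and subsets were chosen with earlier results of these data known. Members named in full were the up to 5 of lowest adjusted p in each cluster and those with most counts in a line, and up to 5 genes of each other list, with others by counts or values. CTCF and MITF were added for their role after their values were seen. Alternatives were other normalizations, DESeq2 1.42.0, other filters, a call rule with an absolute log2 difference of 1, the replicate number as a block, leaving out each library, and, added after seeing the data, library totals over shared genes. 1 gene of the lists is not reported here. No outlier test applied, since groups held 2 and 3 libraries.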

Additional observations from a re-analysis of the deposited data

How the results depend on the processing

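The number of members called, 35 as reported, was 34 to 36 with RLE or upper-quartile normalization, DESeq2, no filter on low counts, library totals of shared genes or an added threshold of 1 on the log2 scale, and no member changed direction under these. With a mean of at least 50 counts required, 17 members were tested and 14 were called, all of them among the 35, fewer because fewer were tested. Leaving out each library gave 27 to 36 members called, 6104 to 9282 genes called, 12 to 15 genes for control of protocadherins, 10 to 15 partners, 7 to 12 large cadherins and 6 to 11 melanocyte lineage genes. In the lists, without 501Mel replicate 1 the large cadherins called fell from 11 to 7 and the lineage genes from 10 to 6, and with a threshold of 1 on the log2 scale the partners called fell from 15 to 7, the others having smaller differences. With 501Mel reduced to 1 library, that library is assumed to vary like the Hermes 3A libraries. The ratio of the non-clustered sum (1.24) ranged from 0.905 without 501Mel replicate 2 to 1.97 without 501Mel replicate 1. Leaving out each library, the log2 difference of PCDHGB4 (-0.07) ranged from -0.48 to 0.23, turning positive without 501Mel replicate 2 or Hermes 3A replicate 3, that of PCDHGA9 (-0.17) from -0.49 to 0.069, positive without 501Mel replicate 2, and that of PCDH1 (0.17) from -1.60 to 0.92, negative without 501Mel replicate 1 or Hermes 3A replicate 1. PCDH18 was called with DESeq2 (adjusted p = 0.0281), with no filter (0.0323) and without Hermes 3A replicate 2 (0.0401), PCDH10 without Hermes 3A replicate 1 (0.0135), and PCDHB5 was lost with upper-quartile normalization (0.0525). Apart from what the nature of each setting shows, the cause was not tested.

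The labels number the replicates, and libraries of the same number correlated in their deviations at 0.105 and 0.122 in 2 pairs, too few to pair them, so that they share only a number. With the replicate number as a block 34 members were called, 33 of them among the 35, and 7496 genes in place of 8664. Under the block PCDHGB4 was at 0.18 and PCDHGA9 at 0.0025, PCDHGA6 (adjusted p = 0.0642) and PCDHGB7 (0.0568) were not called, and PCDHGA8, a clustered member, was called as higher in 501Mel (log2 2.46, adjusted p = 0.0481), which no clustered member was by the test without the block. Depth limits the alpha genes and the beta genes in 501Mel, where most values lie near the floor.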

Other observations

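Pseudogenes of the clusters were read at low level. PCDHB18P had 1 and 0 counts in 501Mel and 12, 18 and 17 in Hermes 3A (log2 -4.85 ± 0.91, adjusted p = 0.00457). PCDHGB8P had 2 and 3 counts against 14, 30 and 31 (log2 -3.47 ± 0.75, adjusted p = 0.00784). Both were higher in Hermes 3A, as were most functional genes beside them. Neither reached the filter's cut of 0.245 CPM in a 501Mel library. Both had thus passed through Hermes 3A only and could hardly have been called the other way. PCDHB17P, at 1 and 0 against 4, 3 and 1 counts, and PCDHB19P, at 0 and 0 against 2, 3 and 3, did not pass the filter. PCDH8P1, a processed copy on chromosome 13, had 5 and 9 counts in 501Mel and 0, 1 and 0 in Hermes 3A, also below the filter. Reads of such copies and of their parent genes can be exchanged in the counting, and this was not tested. These genes were chosen by name, with their values known.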
